A study of Mus musculus with 2 samples.

Results

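Mitochondrial ribosomal protein genes are nuclear genes for the proteins of the ribosome that works inside mitochondria. They were taken here as the 78 GENCODE M21 protein-coding genes, of 21951 in all, whose symbol starts with Mrpl or Mrps and a digit. The set holds 49 proteins of the large subunit (Mrpl) and 29 of the small subunit (Mrps), and small RNAs that matched their transcripts exactly in sense were counted. The mitochondrial ribosome makes the few proteins encoded by mitochondrial DNA, all of them parts of the oxidative phosphorylation system, while its own proteins are made in the cytosol and imported. In the mouse testis before the pachytene stage, piRNAs (small RNAs bound by PIWI proteins) come from transposons and from many ordinary mRNAs, whose 3′ UTRs are the usual source. Primary piRNAs usually begin with U and are trimmed at their 3′ ends to the length that fits the PIWI protein.

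The testes were from Tdrkh-/- mice and from Tdrkh+/- mice, both 11 days after birth, with 1 small RNA library per genotype made from 5 pooled pairs of testes. In Tdrkh-/- mice exons 2 to 4 of both copies of Tdrkh, including the start codon, had been removed by EIIa-Cre, and Tdrkh+/- mice carried 1 such copy, so the loss was not limited to one cell type. Both genotypes were on a mixed C57Bl6/129 background, and the labels do not say which of the independent knockout lines was used. The protein of Tdrkh has Tudor and KH domains and sits on the surface of mitochondria, and the study asked about its part in the making of primary piRNAs. Since each genotype has 1 library, no test was run and nothing has a replicate check. Intervals (95%) cover counting error only and treat reads as independent. These reads carry no molecular identifiers and so are not independent molecules, so the intervals may be too narrow even for counting error.

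The Tdrkh-/- library held 60973266 reads and the Tdrkh+/- library 43172204. Sense reads in exons 2 to 4 of Tdrkh numbered 0 for Tdrkh-/- and 17 for Tdrkh+/-, while its other exons had 728 and 1087; a count of 0 allows up to 1.21 reads per 1000000 microRNA reads. The testis microRNAs Mir871, Mir470 and Mir741 made up 4.78%, 7.45% and 0.0790% of microRNA reads in Tdrkh-/-, against 4.73%, 5.35% and 0.0688% in Tdrkh+/-, while Mir463 and Mir881 had 0.0354% and 0.107% in Tdrkh-/-, against 0.0514% and 0.149% in Tdrkh+/-. The Sertoli cell microRNA Mir202 had 0.0318% in Tdrkh-/- and 0.0283% in Tdrkh+/-. The liver microRNA Mir122 had 1 read in Tdrkh-/- and 0 in Tdrkh+/-, the muscle microRNAs Mir1a-1 and Mir133a-1 had 1 and 89 against 6 and 96, and the erythroid Mir451a had 20 and 23. Of the neuronal microRNAs, Mir124a-1 had 0 reads in both and Mir9-1 had 23 in Tdrkh-/- and 43 in Tdrkh+/-. Reads are compared per microRNA read, with 2486303 microRNA reads in Tdrkh-/- and 2363475 in Tdrkh+/-, and a level is the number of reads per 1000000 microRNA reads.

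The small RNAs on which the results turn are shown first, as found in the libraries, 5′ to 3′ and written as DNA, with the first base in capitals because a 5′ U (T here) is the mark of a primary piRNA. The first 8 are the most abundant sequence of 24 to 30 nt of a gene. The last 4 are the first 24 nt of the 5′ end that carried most long reads in Tdrkh-/-. Choosing an end for its reads in Tdrkh-/- itself favours a higher count there than in Tdrkh+/-. This also holds for ends chosen in that way below.
Mrpl35: Tatttcgtcccttgaatgtcttggcatc
Mrpl24: Tacattggcagaaccaaggaccaccgaggg
Mrps17: Tactaagggaaactcttgacttggtgcc
Mrpl36: Tgattaaggacttctccgccggtggcacc
Mrps21: Taccggaccctgaacagaatcctcacc
Mrpl47: Tagtaaatcccaaggacgctgctcact
Mrpl22: Taagattgtttacccacctcaactgcct
Mrpl41: Tacaaagtggagacagtactgaccaagcct
Mrpl42: Tacgaacacaccaaacccatccct
Mrpl37: Tgtgtgaactaagaactttctgga
Mrpl38: Tcactgtgtaacgaggatgatgga
Mrps10: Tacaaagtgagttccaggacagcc
On GRCm38 these lie at chr6:71818828-71818855 (minus strand, coding) for Mrpl35, at chr3:87922397-87922426 (plus, coding) for Mrpl24 and at chr5:129720893-129720920 (plus, 3′ UTR) for Mrps17. The Mrpl36 sequence lies at chr13:73331054-73331082 (plus, 5′ UTR), that of Mrpl47 at chr3:32736646-32736672 (minus, coding), that of Mrpl22 at chr11:58173102-58173129 (plus, coding) and that of Mrpl41 at chr2:24974192-24974221 (minus, 3′ UTR). The Mrps21 sequence is coding and joins 2 exons within chr3:95862923-95870510 (minus), and that of Mrpl42 is coding and joins 2 exons within chr10:95490404-95493645 (minus). The Mrpl37 end lies at chr4:107056010-107056033 (minus, 3′ UTR). The last pair lie in introns of the coding transcript, at chr11:116137944-116137967 (minus) for Mrpl38 and at chr17:47369931-47369954 (plus) for Mrps10. Of the 12 most abundant genes of the set, 10 had a 24 to 30 nt leading sequence that began with U, the exceptions being Mrpl51 with C and Mrpl37 with A.

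Small RNAs of piRNA size (24 to 30 nt, called short here) from these genes were scarcer in the Tdrkh-/- testis and longer ones (31 to 37 nt, called long) were more frequent. Reads of 24 to 30 nt numbered 9980 in Tdrkh-/- and 35006 in Tdrkh+/-, and their ratio per microRNA read was 0.271 (0.265 to 0.277). The longer reads, of 31 to 37 nt, numbered 23508 in Tdrkh-/- and 8371 in Tdrkh+/-, and their ratio was 2.67 (2.60 to 2.74). Over all protein-coding genes the same ratios were 0.407 and 4.35, so the genes of the mitochondrial ribosome stood lower than the whole in both windows. Their share of all reads on protein-coding genes was 0.231% in Tdrkh-/- and 0.347% in Tdrkh+/- at 24 to 30 nt, and 0.240% and 0.392% at 31 to 37 nt. In whole testis, fewer germ cells and less small RNA per cell cannot be told apart.

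The change ran along the length scale rather than between 2 blocks. The most frequent length in Tdrkh-/- was 32 nt, with 17.3% of the reads of 24 to 37 nt, and in Tdrkh+/- it was 28 nt, with 21.6%. The ratio per microRNA read was 0.863 (0.761 to 0.978) at 24 nt, lowest at 28 nt with 0.136 (0.128 to 0.144), 1.16 (1.10 to 1.23) at 31 nt and highest at 37 nt with 4.73 (4.29 to 5.23). At 28 nt there were 1341 reads in Tdrkh-/- and 9377 in Tdrkh+/-, and at 35 nt there were 3255 and 673. All 67 genes with enough reads for a ratio had a longer mean read in Tdrkh-/-, with a median difference of 3.11 nt. That count over all protein-coding genes is not given here. Of those with enough reads, 99% had a higher ratio of long to short reads in Tdrkh-/-.

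**Figure D1:**
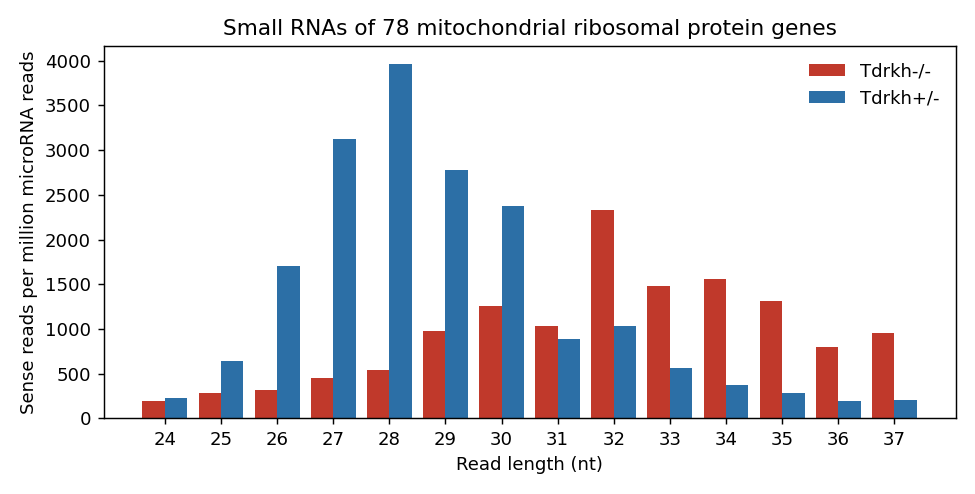
Sense reads of the 78 mitochondrial ribosomal protein genes per 1000000 microRNA reads (vertical) at each read length from 24 to 37 nt (horizontal), Tdrkh-/- in red and Tdrkh+/- in blue, 1 library each. The Tdrkh+/- bars peak at 28 nt and the Tdrkh-/- bars at 32 nt, and the order of the libraries turns at 31 nt.

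All 78 genes had sense reads in the libraries. A ratio per gene was read only for the 67 with at least 200 sense reads of 24 to 37 nt over both libraries; Mrps31 with 203 reads lay just inside and Mrpl50 with 173 just outside. Of the 67, 61 were at least 2-fold lower in Tdrkh-/- at 24 to 30 nt, where 70.9% of the 8992 protein-coding genes with as many reads were. In the longer window, 31 to 37 nt, 43 of the 67 were at least 2-fold higher in Tdrkh-/-, where 72.8% of all such genes were. The median log2 ratio was -1.81 at 24 to 30 nt (all genes -1.47) and 1.13 at 31 to 37 nt (all genes 1.53). Both medians therefore lay below those of all genes, by a like amount in each window. Counts of genes past 2-fold moved with the processing. By distinct sequences, 10 genes passed 2-fold upward in the long window, where the pooled ratio was 1.38; scaled per read listed or per transcript-matching read, the counts were 24 and 21. At 24 to 30 nt, 31 genes were at least 2-fold lower when only sequences found in both libraries were counted. The shares of all genes given above hold for the main setting alone and cannot be set beside these counts. The interval of the ratio was wholly below 1 at 24 to 30 nt in 65 of the 67 genes and wholly above 1 at 31 to 37 nt in 58. The same counts over all protein-coding genes are not given here, so these do not set the genes apart. The 11 genes under the minimum were all lower in Tdrkh-/- at 24 to 30 nt, and 8 of them were higher at 31 to 37 nt.

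Lower short reads with higher long reads were found in 59 of the 67 genes, against 89.1% of all protein-coding genes tested. Reads of 31 to 37 nt outnumbered those of 24 to 30 nt in 60 of the 67 genes in Tdrkh-/- and in 0 of 67 in Tdrkh+/-. That count over all genes is not given here. Pooled over all protein-coding genes, Tdrkh-/- had 9784489 long and 4316769 short reads, and Tdrkh+/- had 2137201 long and 10074967 short reads. The ratio of long to short reads was higher in Tdrkh-/- in each of the 67, as it was in 99% of all genes tested. The 42 large subunit genes tested had median log2 ratios of -1.999 and 1.27, and the 25 small subunit genes had -1.72 and 1.04. At the longer lengths, 30 of the 42 large subunit genes and 13 of the 25 small subunit genes were at least 2-fold higher in Tdrkh-/-.

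**Figure D2:**
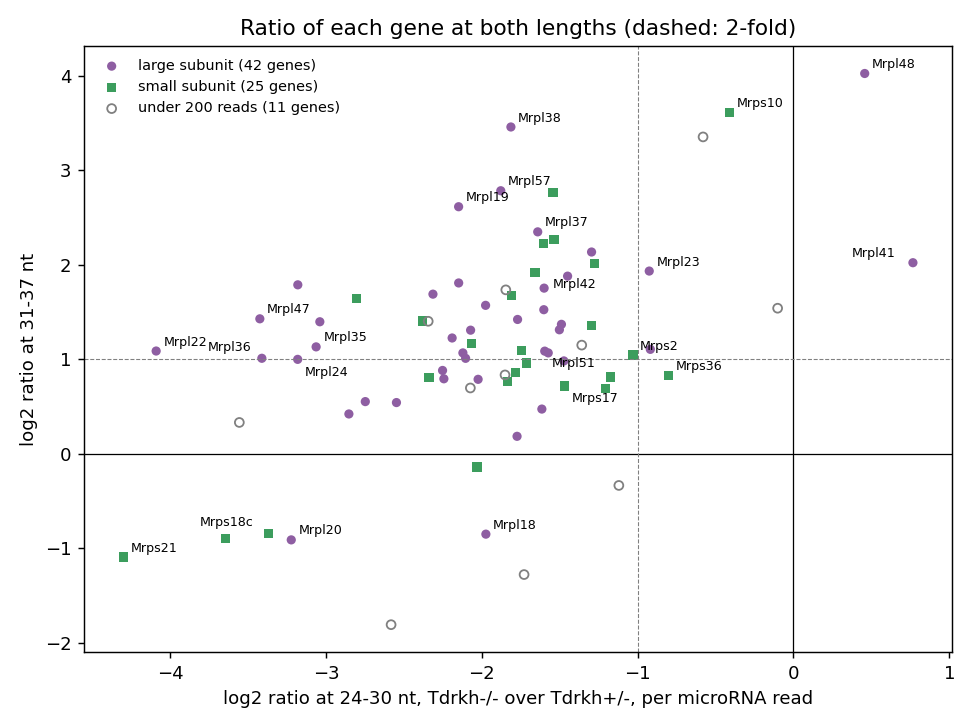
Log2 ratio of Tdrkh-/- over Tdrkh+/- per microRNA read at 24 to 30 nt (horizontal) and at 31 to 37 nt (vertical), 1 point per gene, circles for the large subunit, squares for the small subunit and open circles for the 11 genes under 200 reads; dashed lines mark 2-fold. Most points lie at the upper left, 6 tested genes lie below 0 in both directions, and Mrpl41 and Mrpl48 alone among tested genes lie right of 0.

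Other genes of mitochondrial and ribosomal function gave values on both sides of these. The cytosolic ribosomal protein genes (86 of 94 tested) had medians of -2.39 and 0.65, with 77 at least 2-fold lower at 24 to 30 nt and 28 at least 2-fold higher at 31 to 37 nt. The nuclear oxidative phosphorylation genes (81 of 98 tested), whose proteins join those made by the mitochondrial ribosome, had medians of -2.05 and 0.91, with 74 and 37 so called. Other mitochondrial translation genes (42 of 55 tested), such as elongation factors, aminoacyl-tRNA synthetases and ribosome assembly factors, had medians of -1.22 and 1.66, with 26 and 34. The medians of the mitochondrial ribosomal genes lay between those of the cytosolic ribosomal genes and those of the other translation genes in both windows.

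A few genes carried much of the signal. The 5 most abundant held 34.4% of the reads of the set and the 10 most abundant 46.7%. Per kilobase of coding transcript, the summed level at 24 to 37 nt had a median over tested genes of 67.7 in Tdrkh-/- and 102 in Tdrkh+/-, against 42.4 and 47.3 over all protein-coding genes tested. Mrpl42 was highest per kilobase, with 2497 in Tdrkh-/- and 1862 in Tdrkh+/-. Of its matching reads, each counted whole, 60.3% lay in it alone. On sequences in 1 gene its log2 ratios were -1.63 at 24 to 30 nt and 1.92 at 31 to 37 nt. Across the 67 genes, the log levels of the 24 to 30 nt reads in the libraries had Pearson r = 0.74 and Spearman rho = 0.76, and the 2 log2 ratios had r = 0.52 and rho = 0.36. These describe genes that share the same 2 libraries and the same microRNA totals.

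Among large subunit proteins with bacterial counterparts, Mrpl35 and Mrpl24 had the most short reads in the heterozygote. Mrpl35 (ENSMUSG00000052962.3, chr6:71812997-71826969, minus strand) had 488 short reads in Tdrkh-/- and 3878 in Tdrkh+/-, a log2 ratio of -3.06 (-3.20 to -2.93). Its reads of 31 to 37 nt numbered 1084 in Tdrkh-/- and 471 in Tdrkh+/-, a log2 ratio of 1.13 (0.97 to 1.29). One 5′ end at base 99 of its transcript, the one shown above, held 27.9% of its reads in Tdrkh-/- and 66.1% in Tdrkh+/-. That end had 171 short reads in Tdrkh-/- and 2796 in Tdrkh+/-, and 254 long reads in Tdrkh-/- and 53 in Tdrkh+/-, so the loss of short reads was not matched in number by long ones.

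Mrpl24 (ENSMUSG00000019710.13, chr3:87919506-87923672, plus strand), a protein near the exit of the peptide tunnel, also drew most of its reads from 1 end. It had 279 short reads in Tdrkh-/- and 2407 in Tdrkh+/-, a log2 ratio of -3.18 (-3.37 to -3.00). Its reads of 31 to 37 nt came to 1509 in Tdrkh-/- and 718 in Tdrkh+/-, a log2 ratio of 0.998 (0.87 to 1.13). The end at base 661, in the coding part, had 125 short reads in Tdrkh-/- and 1714 in Tdrkh+/-, and 1074 long reads in Tdrkh-/- and 529 in Tdrkh+/-. Reads from it averaged 33.3 nt in Tdrkh-/- and 30.4 nt in Tdrkh+/-, and it led in both windows of both libraries.

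Mrpl36 (ENSMUSG00000021607.9), the counterpart of a very small bacterial protein, was the one abundant gene with reads almost wholly in the 5′ UTR, 79.8% in Tdrkh-/- and 96.3% in Tdrkh+/-. It had 126 short reads in Tdrkh-/- and 1274 in Tdrkh+/-, a log2 ratio of -3.41 (-3.69 to -3.15), and its long reads, 161 in Tdrkh-/- and 76 in Tdrkh+/-, had 1.01 (0.61 to 1.42), which turned to -0.61 by distinct sequences, where the ratio at 24 to 30 nt was -0.79. A single end at base 67 held 65.9% of its reads in Tdrkh-/- and 91.2% in Tdrkh+/-. Mrpl19, another large subunit protein with a bacterial counterpart, had 89.8% of its reads in the 3′ UTR in Tdrkh-/- and 92.7% in Tdrkh+/-. It had 174 short reads in Tdrkh-/- and 734 in Tdrkh+/- and 543 long reads in Tdrkh-/- and 84 in Tdrkh+/-, log2 ratios of -2.15 (-2.40 to -1.91) and 2.61 (2.29 to 2.97). No end of Mrpl19 held more than 12.9% of its reads in either library.

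The proteins specific to mitochondrial ribosomes included the gene with most reads. Mrpl42 (ENSMUSG00000062981.5, chr10:95480805-95501940, minus strand) had 673 short reads in Tdrkh-/- and 1940 in Tdrkh+/-, a log2 ratio of -1.60 (-1.73 to -1.47). Its reads of 31 to 37 nt numbered 3431 in Tdrkh-/- and 968 in Tdrkh+/-, a log2 ratio of 1.75 (1.65 to 1.86). The end at base 310 was chosen for its long reads in Tdrkh-/-, which itself favours a higher count there. It had 15 short reads in Tdrkh-/- and 29 in Tdrkh+/-, against 1732 long reads in Tdrkh-/- and 108 in Tdrkh+/-. Its leading long end in Tdrkh-/- was thus a minor end among the short reads of either library.

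Mrpl37 (ENSMUSG00000028622.11), also without a bacterial counterpart, had 282 and 836 short reads in Tdrkh-/- and Tdrkh+/-, a log2 ratio of -1.64 (-1.84 to -1.44). Long reads numbered 766 in Tdrkh-/- and 143 in Tdrkh+/-, a log2 ratio of 2.35 (2.09 to 2.62). Its 3′ UTR end at base 1339 was also chosen for its long reads in Tdrkh-/-. That end had 19 short reads in Tdrkh-/- and 83 in Tdrkh+/-, and 352 long reads in Tdrkh-/- and 9 in Tdrkh+/-. Reads from the 3′ UTR were 70.0% of those on the mRNA in Tdrkh-/- and 35.4% in Tdrkh+/-. Mrpl51, of the same kind, had log2 ratios of -1.60 (-1.71 to -1.48) and 1.09 (0.91 to 1.27), but most of its matching reads lay in other genes too. At 24 to 30 nt its log2 ratio was -3.19 on sequences in 1 gene and -1.003 without reads outside coding transcripts, where 8.77% of its Tdrkh-/- reads and 34.8% of its Tdrkh+/- reads lay.

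In the small subunit, Mrps17, the counterpart of a bacterial protein that binds ribosomal RNA, had most reads. Mrps17 (ENSMUSG00000034211.14, chr5:129715497-129722556, plus strand) had 402 short reads in Tdrkh-/- and 1056 in Tdrkh+/-, a log2 ratio of -1.47 (-1.64 to -1.30). Its long reads came to 1776 in Tdrkh-/- and 1027 in Tdrkh+/-, a log2 ratio of 0.72 (0.61 to 0.83). Among its long reads, 2 ends of the 3′ UTR differed in opposite directions. Each was chosen because it led the long reads of a library, which itself favours a higher count in that library. The end at base 3398 had 10 short reads in Tdrkh-/- and 245 in Tdrkh+/-, and 851 long reads in Tdrkh-/- and 19 in Tdrkh+/-. The end at base 2852 had 201 long reads in Tdrkh-/- and 689 in Tdrkh+/-, with 0 and 16 short reads. In the windows of 26 to 28 nt and 33 to 36 nt the log2 ratios of Mrps17 were -3.43 and 2.28, and among sequences found in both libraries the ratio at 24 to 30 nt was -0.76. Mrps2, which in bacteria joins the small subunit late, had 347 short reads in Tdrkh-/- and 674 in Tdrkh+/-, a log2 ratio of -1.03 (-1.22 to -0.84), and its 31 to 37 nt ratio was 1.04 (0.76 to 1.33). Its leading 3′ UTR end at base 1999 had 252 and 301 short reads in Tdrkh-/- and Tdrkh+/-, and 149 and 33 long reads.

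**Figure D3:**
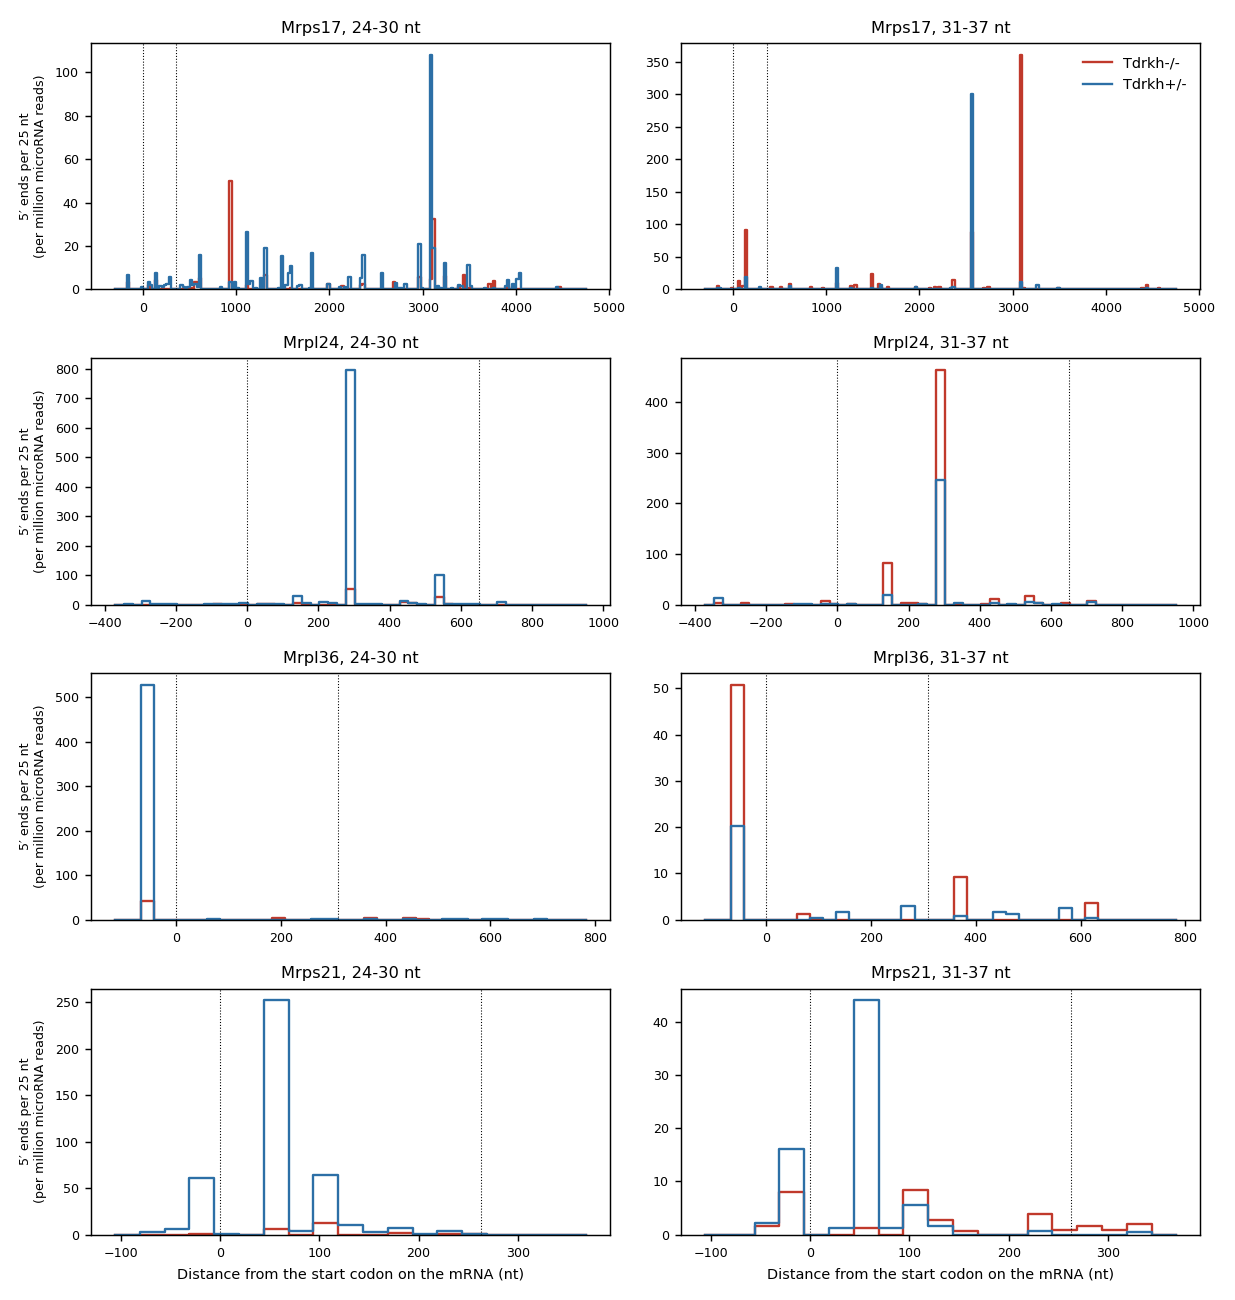
Number of 5′ ends in bins of 25 nt, per 1000000 microRNA reads (vertical), against distance from the start codon on the mRNA (horizontal) for Mrps17, Mrpl24, Mrpl36 and Mrps21, reads of 24 to 30 nt on the left and of 31 to 37 nt on the right, Tdrkh-/- in red and Tdrkh+/- in blue; dotted lines mark the start and stop codons. The leading Mrpl24 and Mrpl36 bins are shared by both libraries and windows, Mrps17 has opposite long peaks in its 3′ UTR, and the leading Mrps21 bin of Tdrkh+/- is near 0 in Tdrkh-/-.

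The 4 lowest ratios at 24 to 30 nt were those of Mrps21, Mrpl22, Mrps18c and Mrpl47, all with bacterial counterparts. Mrps21 (ENSMUSG00000054312.6, chr3:95862634-95871519, minus strand) had 53 reads in Tdrkh-/- and 991 in Tdrkh+/-, a log2 ratio of -4.30 (-4.73 to -3.90). It was also the 1 gene at least 2-fold lower at 31 to 37 nt (0.756% of all genes tested), with 85 reads in Tdrkh-/- and 172 in Tdrkh+/-, a log2 ratio of -1.09 (-1.48 to -0.71). That call did not hold by distinct sequences (-0.0186) or at 33 to 36 nt (-0.32), and the direction turned among sequences found in both libraries (0.57). Its leading Tdrkh+/- end, at base 173, had 7 short and 0 long reads in Tdrkh-/- against 494 short and 0 long reads in Tdrkh+/-. Short reads from that end were thus few in Tdrkh-/-, and neither library had long reads there. The end was chosen for its short reads in Tdrkh+/-, which itself favours a lower count in Tdrkh-/-. The same holds for later ends that led the short reads of Tdrkh+/-.

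Mrpl47, the counterpart of a bacterial protein at the tunnel exit, gave the same picture at its leading end, but not as a gene. The end at base 476 had 4 short and 0 long reads in Tdrkh-/- and 592 short and 0 long reads in Tdrkh+/-. The gene had 74 short reads in Tdrkh-/- and 760 in Tdrkh+/-, and 216 long reads in Tdrkh-/- and 76 in Tdrkh+/-, with log2 ratios of -3.42 (-3.80 to -3.09) and 1.43 (1.05 to 1.83). Mrpl22, whose bacterial counterpart lines the tunnel, differed from both at its leading end, at base 172. That end had 13 short and 62 long reads in Tdrkh-/-, against 279 short and 0 long reads in Tdrkh+/-. The gene had 22 short reads in Tdrkh-/- and 364 in Tdrkh+/-, a log2 ratio of -4.09 (-4.81 to -3.50), and 72 and 32 long reads, a log2 ratio of 1.09 (0.48 to 1.75). Its ratio for long reads turned to -1.10 by distinct sequences and -0.0815 among sequences found in both libraries.

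These ends show a range among the genes. In each of the 67 tested genes, the end with most short reads in Tdrkh+/- was looked up in both libraries, a choice that itself favours a lower value in Tdrkh-/-. Of the 67 ends, 58 began with U. Long reads outnumbered short ones at 27 of them in Tdrkh-/- and at 0 in Tdrkh+/-. The choice also favours short over long reads in Tdrkh+/-, so the 0 there was largely set by it. The level of long reads was higher in Tdrkh-/- at 30 ends. No long read was found at 31 ends in Tdrkh-/- and at 30 in Tdrkh+/-, and 24 ends had none in either library. The same counts for the ends of all protein-coding genes are not given here.

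The ratio at 31 to 37 nt was below 1 in 6 of the 67 genes (4.53% of all genes tested), and each of them was also lower at 24 to 30 nt (4.38% lower in both), namely Mrpl20, Mrps21, Mrps11, Mrps14, Mrpl18 and Mrps18c. Mrps11 and Mrps14 were named after their values were seen. Mrpl20 (ENSMUSG00000029066.12), which in bacteria is needed early in large subunit assembly, had 105 short reads in Tdrkh-/- and 932 in Tdrkh+/-, a log2 ratio of -3.22 (-3.53 to -2.93). Its long reads numbered 109 in Tdrkh-/- and 195 in Tdrkh+/-, a log2 ratio of -0.91 (-1.26 to -0.57). Mrpl18 had log2 ratios of -1.97 (-2.46 to -1.54) and -0.85 (-1.35 to -0.38), from 58 long reads in Tdrkh-/- and 100 in Tdrkh+/-. Mrps18c, one of several mitochondrial variants of the same bacterial protein, had -3.65 (-4.53 to -2.91) and -0.90 (-1.41 to -0.42), with 55 and 98 long reads, and 29.4% of its matching reads lay in it alone. Among sequences found in both libraries Mrps18c had -1.06 and -0.0826, and Mrpl18 had -0.37 and -0.59. The Mrps14 interval at 31 to 37 nt, -0.52 to 0.25, included no difference. In each of these 6 the ratio was still higher at 31 to 37 nt than at 24 to 30 nt.

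Mrpl41 and Mrpl48, both specific to mitochondrial ribosomes, were the 2 genes with a ratio above 1 at 24 to 30 nt (6.47% of all genes tested), and both were also above 1 at 31 to 37 nt (6.33% above 1 in both). Mrpl41 (ENSMUSG00000036850.4, chr2:24974117-24975098, minus strand) had 862 short reads in Tdrkh-/- and 482 in Tdrkh+/-, a log2 ratio of 0.77 (0.60 to 0.93). Of long reads it had 126 in Tdrkh-/- and 30 in Tdrkh+/-, a log2 ratio of 2.02 (1.41 to 2.62). Its 3′ UTR end at base 672, shown above as a sequence of 30 nt, had 466 short reads in Tdrkh-/- and 274 in Tdrkh+/-, and 12 and 7 long reads. Reads from that end averaged 30.1 nt in Tdrkh-/- and 29.95 nt in Tdrkh+/-, so it did not share the difference in length. Counted by distinct sequences in place of reads, the log2 ratio of Mrpl41 at 24 to 30 nt was -1.15, and in the window of 26 to 28 nt it was -0.91. No gene of the set was at least 2-fold higher at 24 to 30 nt, where 2.45% of all genes tested were.

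Mrpl38 and Mrps10 were among the 4 highest ratios at 31 to 37 nt, and both rested largely on reads outside the mRNA. Mrpl38 (ENSMUSG00000020775.13, chr11:116131817-116138868, minus strand) had 1376 long reads in Tdrkh-/- and 119 in Tdrkh+/-, a log2 ratio of 3.46 (3.19 to 3.74). In Tdrkh-/- 88.3% of its reads lay outside every coding transcript, against 30.7% in Tdrkh+/-. The intronic end shown above had 9 short and 867 long reads in Tdrkh-/-, against 0 short and 5 long reads in Tdrkh+/-. Without the reads outside coding transcripts, its log2 ratio at 31 to 37 nt was 0.15. Mrps10 (ENSMUSG00000034729.16, chr17:47368887-47381417, plus strand) had 984 long reads in Tdrkh-/- and 77 in Tdrkh+/-, a log2 ratio of 3.61 (3.27 to 3.96). Of its reads 87.9% in Tdrkh-/- and 50.7% in Tdrkh+/- lay outside coding transcripts, and 1 intronic end had 585 and 12 long reads. Without them its log2 ratio at 31 to 37 nt was 0.97. Among annotated transcripts, both intronic ends matched no other gene in sense, and both lay in transcripts with a retained intron. The genome was not searched, so copies outside annotated transcripts were not seen. Whether all these reads came from the introns of Mrpl38 and Mrps10 was not tested.

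Mrpl48 (ENSMUSG00000030706.17) had 744 short reads in Tdrkh-/- and 515 in Tdrkh+/-, a log2 ratio of 0.46 (0.29 to 0.62), and 982 and 57 long reads, a log2 ratio of 4.02 (3.65 to 4.45). Only 2.91% of its matching reads, each counted whole, lay in it alone. The counts above split reads between genes, so their share in Mrpl48 alone is not this value. The commonest end outside its coding transcripts in Tdrkh-/- matched up to 50 genes. Without the reads outside coding transcripts its log2 ratio was -3.03 at 24 to 30 nt and 3.71 at 31 to 37 nt. In its 3′ UTR, the end at base 744 had 6 short and 112 long reads in Tdrkh-/-, against 115 short and 5 long reads in Tdrkh+/-. Mrpl57, with 99.5% of reads in it alone and none outside its coding transcripts, had a log2 ratio of 2.78 (2.41 to 3.17) at 31 to 37 nt, from 492 reads in Tdrkh-/- and 68 in Tdrkh+/-. Its leading long end, at base 420 in the 3′ UTR, had 133 long reads in Tdrkh-/- and 19 in Tdrkh+/-.

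Over the whole set, reads outside coding transcripts made up 14.4% of the long reads in Tdrkh-/- and 3.06% in Tdrkh+/-, a ratio per microRNA read of 12.6 (11.1 to 14.3). Over all protein-coding genes the shares were 3.96% and 4.36%, a ratio of 3.95. At 24 to 30 nt the shares for the set were 14.3% and 5.90%, a ratio of 0.655 (0.612 to 0.701). Only Mrpl38, Mrps10, Mrpl48 and Mrpl33 among the 67 had more than 50% of their Tdrkh-/- reads there. Mrpl33, named after its values were seen, had 65.8% in Tdrkh-/- and 30.6% in Tdrkh+/-. Within coding transcripts alone, the ratios of the set were 0.247 (0.241 to 0.253) at 24 to 30 nt and 2.36 (2.30 to 2.42) at 31 to 37 nt.

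Mrpl23 and Mrps36 complete the named genes. Mrpl23, which stands at the tunnel exit, had log2 ratios of -0.93 (-1.14 to -0.72) at 24 to 30 nt and 1.93 (1.66 to 2.21) at 31 to 37 nt, though 1.56% of its matching reads lay in it alone. On sequences in 1 gene its log2 ratios were -1.88 and 1.15, and without reads outside coding transcripts they were -1.88 and 1.95. Mrps36, now known as an adaptor of the α-ketoglutarate dehydrogenase complex, had 37 short reads in Tdrkh-/- and 61 in Tdrkh+/-, a log2 ratio of -0.80 (-1.42 to -0.18). Its 31 to 37 nt ratio was 0.83 (0.29 to 1.41), and 34.5% of its matching reads lay in it alone. Its ratio at 24 to 30 nt turned to 0.0885 among sequences found in both libraries. Over the set, 44 of the 67 genes had at least 90% of their matching reads in 1 gene and 9 had under 50%. These shares, here and for the genes above, count each matching read whole. The read counts and ratios instead split a read in several genes evenly between them. Pooled over the set, 50.3% of matching reads lay in 1 gene when counted whole and 88.3% when split.

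Counted by reads, the share that began with U differed between the 2 windows. At 24 to 30 nt, 63.8% (62.8 to 64.7) of reads in Tdrkh-/- and 75.9% (75.5 to 76.3) in Tdrkh+/- began with U. At 31 to 37 nt the shares were 75.4% (74.8 to 75.9) in Tdrkh-/- and 69.6% (68.6 to 70.6) in Tdrkh+/-. U made up 25.8% of the bases of the coding transcripts, so each share was far above the base composition. Over all protein-coding genes the shares were 78.3% in Tdrkh-/- and 82.0% in Tdrkh+/- at 24 to 30 nt, and 80.7% and 73.0% at 31 to 37 nt. The Tdrkh-/- reads of the set thus began with U more often when long than when short, and the Tdrkh+/- reads less often. With each distinct sequence counted once, the windows lay closer together. The shares were then 59.1% for short and 60.3% for long sequences in Tdrkh-/-, and 59.9% and 56.5% in Tdrkh+/-.

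Genes differed widely in this share. Over both windows it ran from 3.85% for Mrpl52 to 93.9% for Mrpl24 in Tdrkh-/-, and from 8.38% for Mrpl12 to 96.1% for Mrpl36 in Tdrkh+/-; Mrpl52 and Mrpl12 were named after their values were seen. The share was above 50% in both libraries in 49 of the 67 genes and lower in Tdrkh-/- in 41. Neither count is given over all protein-coding genes, so they do not set these genes apart. When each distinct sequence was counted once, the difference at 24 to 30 nt shrank to -0.78 percentage points, from -12.1 by reads.

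Reads of the set came from the coding part more than from the 3′ UTR, except for the short reads of Tdrkh-/-. At 24 to 30 nt in Tdrkh-/-, 4.34% lay in the 5′ UTR, 43.9% in the coding part and 51.7% (50.7 to 52.8) in the 3′ UTR, against 8.35%, 60.6% and 31.1% (30.6 to 31.6) in Tdrkh+/-. At 31 to 37 nt the shares were 3.16%, 58.2% and 38.6% (37.96 to 39.3) in Tdrkh-/-, against 4.26%, 58.9% and 36.9% (35.8 to 37.9) in Tdrkh+/-. The 3′ UTR share of short reads in Tdrkh-/- rested on some genes and reads: it was 46.2% (29.6% in Tdrkh+/-) without Mrpl41 and Mrpl48, 43.1% (30.1%) at 26 to 28 nt and 40.6% (36.9%) by distinct sequences, where the difference of 20.7 percentage points shrank to 3.75. The same parts made up 6.78%, 33.9% and 59.3% of the bases. The 3′ UTR was thus under its share of bases, whereas over all protein-coding genes it held 74.4% of short reads in Tdrkh-/- and 71.3% in Tdrkh+/-, with 43.6% of the bases. For long reads of all genes it held 74.3% in Tdrkh-/- and 65.8% in Tdrkh+/-. The 59.3% of bases is a pooled share. On the transcript used for each of the 78 genes, the median 3′ UTR was 328 nt and the longest 6651 nt. The median coding part was 577.5 nt. The pooled share of bases thus leaned on genes with long 3′ UTRs and depends on the transcript used.

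The ratio at 24 to 30 nt also differed by part. It was 0.128 (0.114 to 0.143) in the 5′ UTR, 0.178 (0.172 to 0.185) in the coding part and 0.410 (0.395 to 0.425) in the 3′ UTR. Over all protein-coding genes these ratios were 0.317, 0.353 and 0.407. The 3′ UTR of the set thus stood near the whole and the other parts stood below it. Its 3′ UTR value includes Mrpl41, with 862 short reads in Tdrkh-/- and 482 in Tdrkh+/-. Over both windows, 96.7% and 93.3% of Mrpl41 reads on the mRNA lay in the 3′ UTR. Without Mrpl41 and Mrpl48 the ratio of the set over all parts was 0.234. The 3′ UTR ratio without them is not given here, so the nearness to the whole may rest on these genes. In the longer window the ratios of the set were 1.74 (1.53 to 1.99), 2.33 (2.25 to 2.41) and 2.47 (2.36 to 2.57), against 3.53, 3.25 and 4.94 over all genes. The coding part was the largest source in 39 of the 67 genes in Tdrkh-/- and in 43 in Tdrkh+/-, and the 3′ UTR in 27 and 21. The 3′ UTR share was higher in Tdrkh-/- in 41 of the 67. Among long reads the difference in this share turned to -5.63 percentage points among sequences found in both libraries. The counts of genes by part are not given over all protein-coding genes, so they do not set these genes apart.

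**Figure D4:**
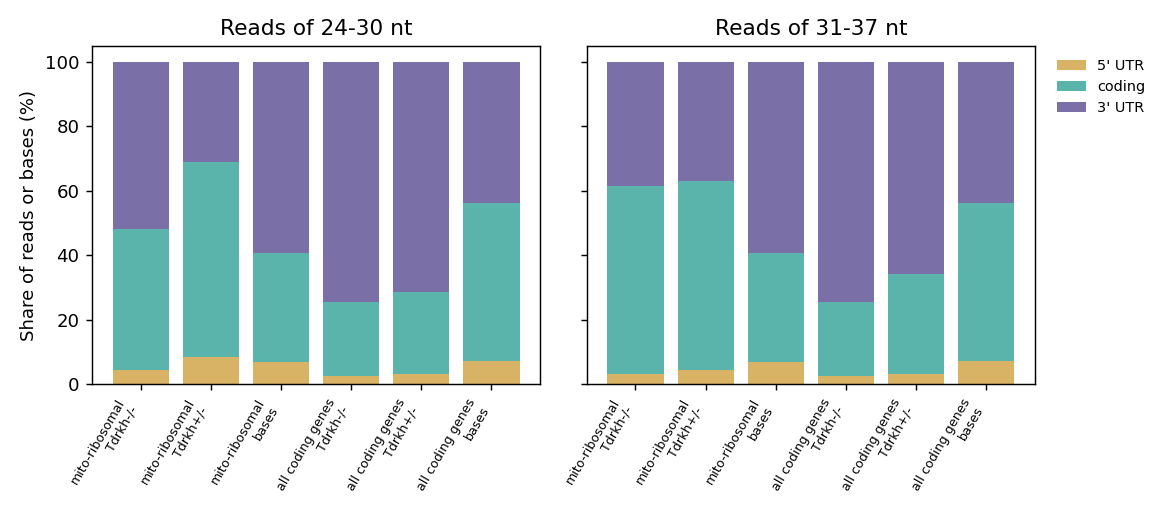
Share (%) of reads in the 5′ UTR, coding part and 3′ UTR, with reads of 24 to 30 nt on the left and of 31 to 37 nt on the right; in each panel bars show the mitochondrial ribosomal genes in Tdrkh-/-, in Tdrkh+/- and their bases, then the same for all protein-coding genes. The coding part (middle colour) is the largest share of the mitochondrial ribosomal genes in 3 of the 4 bars of reads, while the 3′ UTR leads in all 4 bars of reads of all genes.

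The long reads of Tdrkh-/- often began where short reads of Tdrkh+/- began. Of the Tdrkh-/- reads of 31 to 37 nt on the coding transcripts, 71.7% had the same 5′ end as a 24 to 30 nt read of Tdrkh+/-. When starts were shifted by 1 to 10 nt either way, the median was 29.2% and the highest 49.3%. At positions with U, the share was 79.5%, while shifted positions gave 42.2% as the median and 74.3% as the highest. Within Tdrkh+/-, 69.8% of long reads shared an end with its own short reads (shifted median 25.6%, highest 54.2%), and within Tdrkh-/- 53.8% did. Shared 5′ ends are given for this set only, and all protein-coding genes were not compared.

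At the same 5′ end, reads were longer in Tdrkh-/-. There were 103 ends, in 33 genes, at which both libraries had at least 20 reads, and at 93 of them the mean read was longer in Tdrkh-/-. These means had a median of 31.9 nt for Tdrkh-/- reads and of 29.0 nt for Tdrkh+/- reads. The median difference was 2.23 nt (quartiles 0.616 and 3.66), and the lowest and highest were -0.915 and 7.96 nt. The count of such ends over all protein-coding genes is not given here, so it does not set these genes apart. In 99% of all genes tested the ratio of long to short reads was higher in Tdrkh-/-.

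The base that follows the 3′ end in the mRNA also differed between the libraries. It was U after 57.2% (56.1 to 58.2) of 24 to 30 nt reads and 63.7% (63.0 to 64.3) of 31 to 37 nt reads in Tdrkh-/-. In Tdrkh+/- it was U after 30.8% (30.3 to 31.3) and 35.8% (34.8 to 36.9). At the positions up to 10 nt to either side, U was at most 33.5% and 32.4% in Tdrkh-/-, so the excess lay at 1 position. Of the 67 tested genes, 58 had the higher share in Tdrkh-/- at 31 to 37 nt, with medians of 56.5% in Tdrkh-/- and 31.9% in Tdrkh+/-. The next base is given for this set only. Whether all protein-coding genes share the difference was not tested.

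The same order was found without the most abundant gene and by distinct sequences. Without Mrpl42 the shares were 56.9% and 60.6% in Tdrkh-/-, against 31.5% and 33.9% in Tdrkh+/-. With each distinct sequence counted once they were 41.0% and 44.9% in Tdrkh-/-, against 26.2% and 33.2% in Tdrkh+/-.

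**Figure D5:**
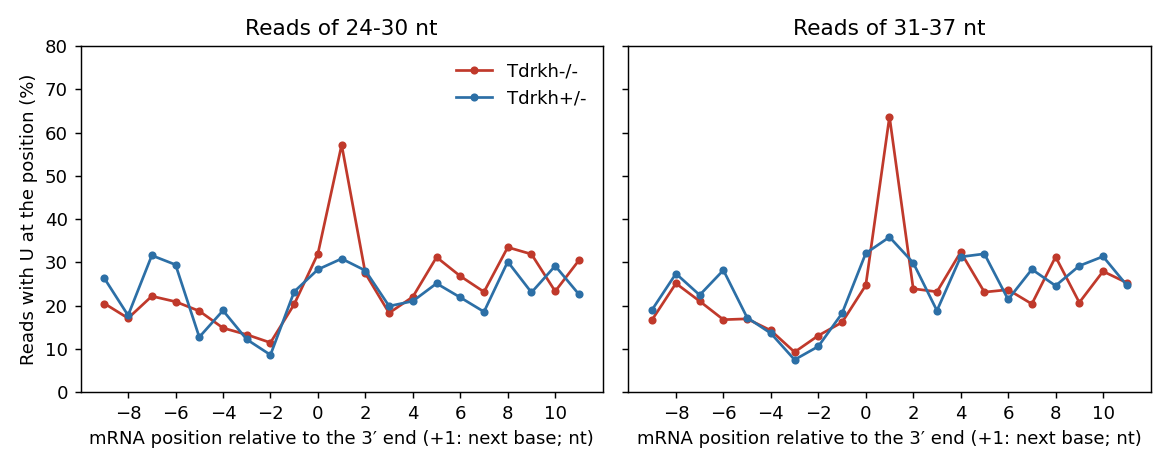
Share (%) of reads of the mitochondrial ribosomal genes with U in the mRNA (vertical) at each position relative to the 3′ end of the read (horizontal, where 1 is the next base), reads of 24 to 30 nt on the left and of 31 to 37 nt on the right, Tdrkh-/- in red and Tdrkh+/- in blue. At the next base Tdrkh-/- has peaks of 57.2% and 63.7%, while Tdrkh+/- has 30.8% and 35.8%.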

How the data were processed

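Per the labels' protocols, RNA of 15 to 40 nt was gel-purified, made into libraries with an Illumina small RNA kit and read on a Genome Analyzer II. The authors deposited, per library, the raw read count of each distinct sequence of 18 to 40 nt (12118721 sequences in Tdrkh-/- and 11808018 in Tdrkh+/-). The submitters' processing notes name Bowtie and mm9; their versions and any trimming were not given in the sources used here. Sequences read once carried 13.1% and 18.5% of reads.

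All sequences were matched exactly to GENCODE M21 transcripts (GRCm38) on both strands with Numba 0.67.0, pandas 2.3.3, NumPy 2.4.6 and SciPy 1.17.1 under Python 3.11.15 (figures with Matplotlib 3.10.9). A transcript match was found for 51.5% of reads in Tdrkh-/- and 46.4% in Tdrkh+/-. A plain string search of 80 sequences gave 0 differences, and the calls were tested on simulated data. Sequences of 18 to 25 nt in microRNA genes served as microRNA reads, and sequences that match microRNA hairpins or structural RNA genes were left out of the hosts. Reads in several genes were divided equally, so read counts per gene are rounded.

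Parts were assigned by the read's midpoint on 1 coding transcript per gene, the one that held most matched sequences, which held 84.9% of short and 85.2% of long reads in Tdrkh-/- and 93.6% and 96.7% in Tdrkh+/-. Called means at least 2-fold per microRNA read among genes with 200 or more reads of 24 to 37 nt over both libraries. Intervals of 95% are Wilson's for shares and exact conditional binomial ones for ratios.

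Named genes are the 12 with the highest level, and the 4 highest and 4 lowest ratios in each window among tested genes. The genes, lists and alternatives were chosen with earlier results of these data known. The germ line microRNA Mir878a is not annotated under that name, and introns were seen only where an annotated transcript holds them.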

Additional observations from a re-analysis of the deposited data

Results flagged for a closer look

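Reads outside the 2 length windows and on the other strand also differed between the libraries. Sense reads of 38 to 40 nt from the mitochondrial ribosomal genes numbered 5966 in Tdrkh-/- and 1268 in Tdrkh+/-, a ratio per microRNA read of 4.47 (4.21 to 4.76), and came from 77 of the 78 genes. Sense reads of 18 to 23 nt numbered 1953 in Tdrkh-/- and 1272 in Tdrkh+/-, with the ratio 1.46 (1.36 to 1.57). Antisense reads of 31 to 37 nt numbered 482 in Tdrkh-/- and 108 in Tdrkh+/-, with the ratio 4.23 (3.44 to 5.28), over 33 genes, with 22.9% of them in Mrpl27. Antisense reads of 24 to 30 nt numbered 283 in Tdrkh-/- and 606 in Tdrkh+/-, with the ratio 0.444 (0.384 to 0.512). The classes with a ratio above 1 were singled out as signal in data that no comparison above used, higher in Tdrkh-/- than in Tdrkh+/-. The antisense genes that share these loci were not separated, and the libraries' strand was read from the sequences as deposited.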

How the results depend on the processing

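No paired analysis was possible because there was 1 library per genotype, with no replicate numbers; for the same reason no replicate could be left out. Both pooled ratios kept their direction under every alternative tried. The 24 to 30 nt ratio was 0.293 with each distinct sequence counted once, 0.284 without sequences read once, 0.346 among sequences found in both libraries, 0.237 among sequences in 1 gene, 0.148 at 26 to 28 nt, 0.202 per read listed and 0.182 per transcript-matching read. The 31 to 37 nt ratio was 1.38 by distinct sequences, 2.97 without sequences read once, 2.84 among shared sequences, 3.61 at 33 to 36 nt, 2.58 without Mrpl42, 1.99 per read listed and 1.79 per transcript-matching read. Alternatives chosen after seeing the data gave 0.247 and 2.36 without reads outside coding transcripts, and 0.234 and 2.57 without Mrpl41 and Mrpl48. The other scalings shift every log2 ratio by -0.42 (per read listed) and -0.57 (per transcript-matching read).

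The count at least 2-fold lower at 24 to 30 nt was 31 among shared sequences and 21 with at least 1000 reads, where fewer genes are tested. The count at least 2-fold higher at 31 to 37 nt was 10 by distinct sequences, 24 per read listed, 21 per transcript-matching read and 19 with at least 1000 reads. Shares of all protein-coding genes are not given at these settings. The 5′ U difference at 24 to 30 nt, in percentage points, was -0.78 by distinct sequences, -13.5 without sequences read once, -17.9 among shared sequences, -14.2 at 26 to 28 nt and -14.4 without reads outside coding transcripts. At 31 to 37 nt it was 3.71, 3.87 and, at 33 to 36 nt, 4.11. The 3′ UTR difference at 24 to 30 nt was 3.75 by distinct sequences, 30.3 among shared sequences, 12.9 at 26 to 28 nt, 23.2 without Mrpl42 and 16.6 without Mrpl41 and Mrpl48. At 31 to 37 nt it was 8.90 by distinct sequences, 10.9 at 33 to 36 nt, 5.54 without Mrpl42 and, in the other direction, -5.63 among shared sequences.

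Of 352 values for single named genes, 173 stayed within the counting interval, 166 moved beyond it and 13 changed sign. Log2 ratios that changed sign were those of Mrpl48 at 24 to 30 nt (-0.78 by distinct sequences, -1.51 in 1 gene, -0.70 at 26 to 28 nt, -0.12 per transcript-matching read and -3.03 without reads outside coding transcripts) and Mrpl41 at 24 to 30 nt (-1.15 by distinct sequences and -0.91 at 26 to 28 nt). Others were Mrpl36 (-0.61) and Mrpl22 (-1.10) at 31 to 37 nt by distinct sequences. Among shared sequences they were Mrpl22 (-0.0815) and Mrps21 (0.57) at 31 to 37 nt, and Mrps10 (0.62) and Mrps36 (0.0885) at 24 to 30 nt. The cause of each was not tested. Depth limits genes such as Mrps18c, with 15 short reads in Tdrkh-/-.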
